A study of Danio rerio with 24 samples.

Results

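Between 12 and 24 hours post-fertilization (hpf) a zebrafish embryo passes from the laying down of its first somites to differentiating muscle, heart, lens, neurons and pigment cells. The 150 genes described here are those that were near silent at the start of that window in embryos supplied with vitamin E (VitE) and most abundant at its end. They were chosen from E+ pools alone: of 29109 genes with reads, 11386 had a mean under 0.5 CPM (reads of a gene per 1000000 reads counted in genes, after scaling of the library) in the E+ pools at 12 hpf, and the 150 of these with the highest mean in the E+ pools at 24 hpf were taken. The values that chose the genes were therefore the E+ levels at 12 and 24 hpf, and every comparison that uses either is given as a description. The E– pools at all time points and both groups at 18 hpf took no part in the choice.

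The parents were Tropical 5D zebrafish on 1 of 2 diets, deficient in VitE (E–) or sufficient in it (E+), and spawned in groups. Whole embryos at 12, 18 and 24 hpf were lysed in pools of 10, with 4 pools for each diet and time point and 24 in all, and only embryos of normal morphology at the landmarks of their stage were pooled. Reads were tags from the 3′ end of polyadenylated RNA, so CPM values were not divided by gene length. The sources used here do not say whether each pool had its own spawning or parents. The p-values therefore set group differences only against the spread between pools, which may be partly technical.

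Tissues of this age switch on their differentiation genes in sequence. Heart and trunk muscle cells assemble sarcomeres, the calcium-driven contractile units. Lens fiber cells fill with crystallins, the soluble proteins that refract light. Neurons acquire the enzymes and vesicle transporters of their transmitters, and melanophores acquire the enzymes of melanin synthesis. The 150 genes were grouped by the known roles of their names after the names had been seen: 34 muscle genes (heart included), 28 neural genes, 10 lens genes, 7 genes of hormones and transport, 6 genes of matrix, skin and fin fold, 4 pigment cell genes, 2 globin genes, and 59 genes of another or no annotated role. Symbols are printed as the gene name table gives them, and for 27 of the 150 genes more than 1 gene of the count table carries the symbol, so a capital symbol names 1 copy of a gene that zebrafish may hold in several. Parvalbumins, crystallins, globins and myosins also come in near-identical copies between which reads may have been split or shared.

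Gene counts per pool ran between 10537272 and 20973407, and the most abundant gene took 25.1% to 39.2% of them. A level of 1 CPM stood for 10.8 to 21.2 reads in a pool. Near silent did not mean absent, since over the 4 E+ pools at 12 hpf the 150 genes had between 2 and 38 reads each, with a median of 22. At the 12 hpf limit the last genes inside were ELMO2, SLC25A4 and GPR85 (E+ means of 0.499, 0.484 and 0.483 CPM), and the first outside, among genes with a high enough level at 24 hpf, were si:dkey-228a15.1, znf296 and arpp21 (0.510, 0.511 and 0.515 CPM). At the 24 hpf limit LIN7A, BVES and CSDC2 were the last inside, with E+ means of 4.04, 4.03 and 4.01 CPM. The closest outside were TRPC4, si:ch211-222f23.7 and linc.phox2bb, with E+ means of 4.01, 3.95 and 3.92 CPM. Both limits of the module thus fell between genes whose levels hardly differed.

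By the known roles of their names, the 10 genes with the highest E+ level at 24 hpf included genes of muscle, lens, pigment cells, skin and notochord. pvalb4, a parvalbumin that buffers calcium in fast muscle, led with means of 48.5 ± 6.98 CPM in E– pools and 48.3 ± 12.1 CPM in E+ pools (SD, n = 4 each). ngs, a gene of the zebrafish notochord, averaged 44.0 CPM in E– pools and 46.9 CPM in E+ pools. TYRP1, a melanin synthesis enzyme, averaged 32.4 ± 2.42 CPM in E– pools and 38.1 ± 4.25 CPM in E+ pools (SD, n = 4 each). Both diets thus held these genes at like levels, with pools that overlapped. CRYBB1, a β-crystallin of the lens, averaged 26.3 ± 3.40 CPM in E– pools and 37.6 ± 12.7 CPM in E+ pools (SD, n = 4 each). The others of the 10 averaged between 20.9 and 34.1 CPM in E– pools and between 26.8 and 37.1 CPM in E+ pools. They included klhl43 (a kelch-like protein), krt1-19e (a keratin), snorc (a cartilage transmembrane proteoglycan in mammals) and cryba1b (another β-crystallin). MYL7 (a cardiac myosin light chain) and FITM1 (a protein of lipid droplets in muscle) completed the 10.

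Taken as a whole the module turned on in both diets over the same 12 hours. The summed level of the 150 genes at 12 hpf was 49.6 ± 6.41 CPM in E– pools and 42.5 ± 6.82 CPM in E+ pools (SD, n = 4 each). At 18 hpf it was 419 ± 25.1 CPM in E– pools and 387 ± 39.3 CPM in E+ pools (SD, n = 4 each). At 24 hpf it was 1446 ± 61.4 CPM in E– pools and 1528 ± 172 CPM in E+ pools (SD, n = 4 each). The ranges of the E– and E+ sums overlapped at every time point. In bulk pools, more RNA per cell and more cells of a type cannot be told apart.

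**Figure D1:**
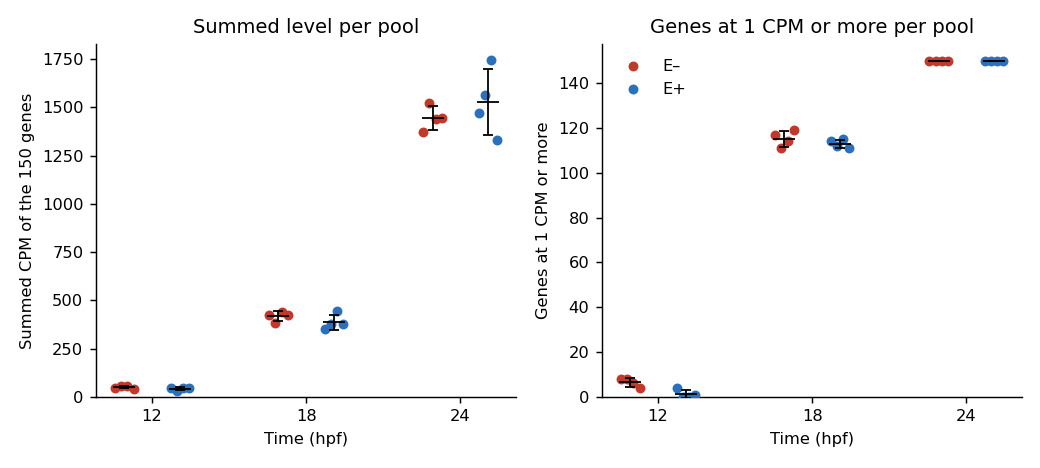
Summed CPM of the 150 genes (left) and the number of them at 1 CPM or more (right) in each pool, by time in hpf; red points are E– pools, blue points E+ pools, black marks the mean and SD of 4 pools. Both diets climbed together, and at 24 hpf all 150 genes were at 1 CPM or more in each of the 8 pools.

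Onset was dated to 18 hpf when a gene's group mean had reached 1 CPM by then. By that measure 122 of the 150 genes were on by 18 hpf in E– pools, against 116 in E+ pools. Single pools had 111 to 119 genes at 1 CPM or more in E– embryos and 111 to 115 in E+ embryos at 18 hpf. The diets put 142 genes in the same class: 115 were on by 18 hpf in both and 27 came on after 18 hpf in both. The 7 genes on by 18 hpf in E– pools alone were pvalb4, si:ch211-1a19.3, MUSTN1, MYOZ2 (the copy ENSDARG00000012311), ACHE, myoz3a and six2b, and the 1 gene on by 18 hpf in E+ pools alone was ENSDARG00000108535. All 8 are named after their values were seen, and of them only six2b differed between the diets at 18 hpf by the test given with that comparison. The counts move with the level that is called on: at 5 CPM only 16 genes in E– pools and 18 in E+ pools were on by 18 hpf.

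The share of the 24 hpf level that a gene had reached at 18 hpf spread widely, with a median of 0.306 in E– pools and 0.252 in E+ pools. This share was under 0.1 for 24 genes in E– pools and 32 genes in E+ pools. It was 1 or more for 3 genes in E– pools and 5 in E+ pools. Among those that stood highest in E+ pools were SLC12A3 (the sodium-chloride cotransporter of the kidney tubule), srrm3 (a neuronal splicing factor), ENSDARG00000096331 and mdp1 (a phosphatase), with shares of 1.75, 1.31, 1.12 and 1.12. The 5 that stood lowest were crygm2d13, crygm2d8, pvalb4, crygm2d19 and CRYBB1, with E+ shares of 0, 0, 0.0070, 0.0072 and 0.0122. Of these 5, all but the parvalbumin are crystallins.

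**Figure D2:**
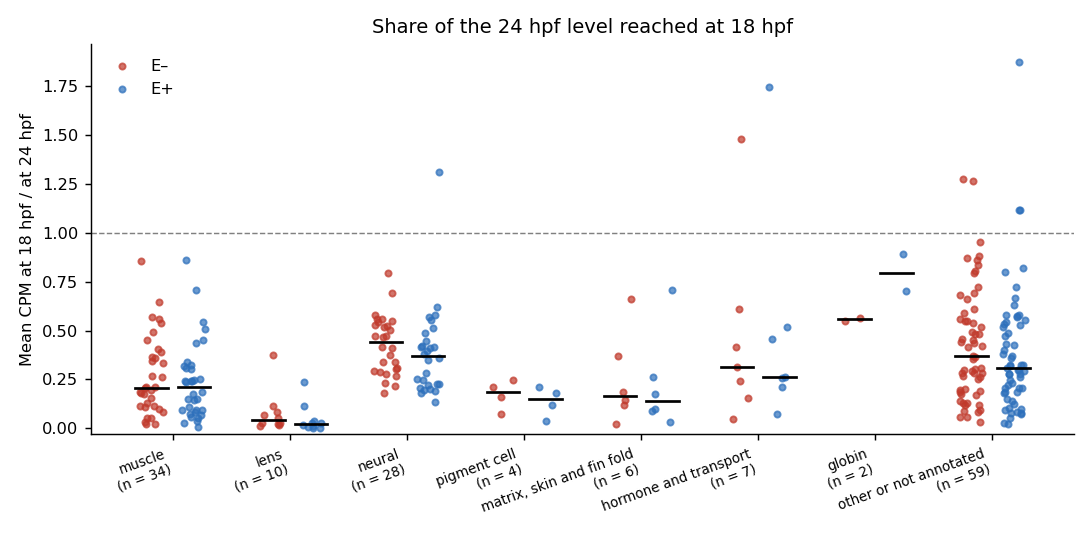
Ratio of the group mean CPM at 18 hpf to that at 24 hpf for each gene, by role; red points on the left are E– and blue points on the right E+, black bars are medians over the n genes of the role and the dashed line marks equal levels. Lens genes lay lowest, with medians of 0.0405 in E– and 0.0213 in E+ pools, and neural genes reached medians of 0.444 in E– and 0.371 in E+ pools.

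The time course in E– pools was tested with edgeR's quasi-likelihood test over 19597 genes, with a gene called a DE gene at an FDR under 0.1. Between 24 and 12 hpf all 150 genes were called higher in E– embryos, against a background of 28.9% of all genes tested. All 150 were among the genes tested because their 24 hpf pools carried them past the filter on low counts, so the count describes the module and is no separate evidence for it. The median log2 fold change was 4.98 for the module and 0.06 for all genes tested. In E+ pools, whose 12 and 24 hpf levels fixed the choice, 150 genes were called higher over the same interval, beside a background of 27.3%.

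The first step, 18 against 12 hpf, was called higher for 132 of the 150 genes in E– pools, against a background of 21.7%, and lower for 1 gene, against 20.4%. The second step, 24 against 18 hpf, was called higher for 127 genes, against a background of 11.2%, and lower for 1 gene, against 10.6%. The rule took genes with a low level at 12 hpf and a high level at 24 hpf in E+ pools. Counts of genes called higher at either step, and their p-values, therefore describe the module and are no separate evidence for it. The median log2 fold changes of the module were 2.84 and 1.72 for the first and the second step, beside 0.02 for all genes tested in each. For 110 genes both steps were called higher. For 16 genes only the second was called, and for 21 genes only the first. scdb, a stearoyl-CoA desaturase that makes monounsaturated fatty acids, was called in neither step, and its log2 fold change at 24 against 12 hpf was 0.89 ± 0.39 (SE; adjusted p = 0.0598, edgeR's quasi-likelihood test). In E+ pools the first step was called higher for 127 genes (background 22.8%) and the second for 131 genes (background 13.1%), and both rest in part on the pools that chose the genes.

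**Figure D3:**
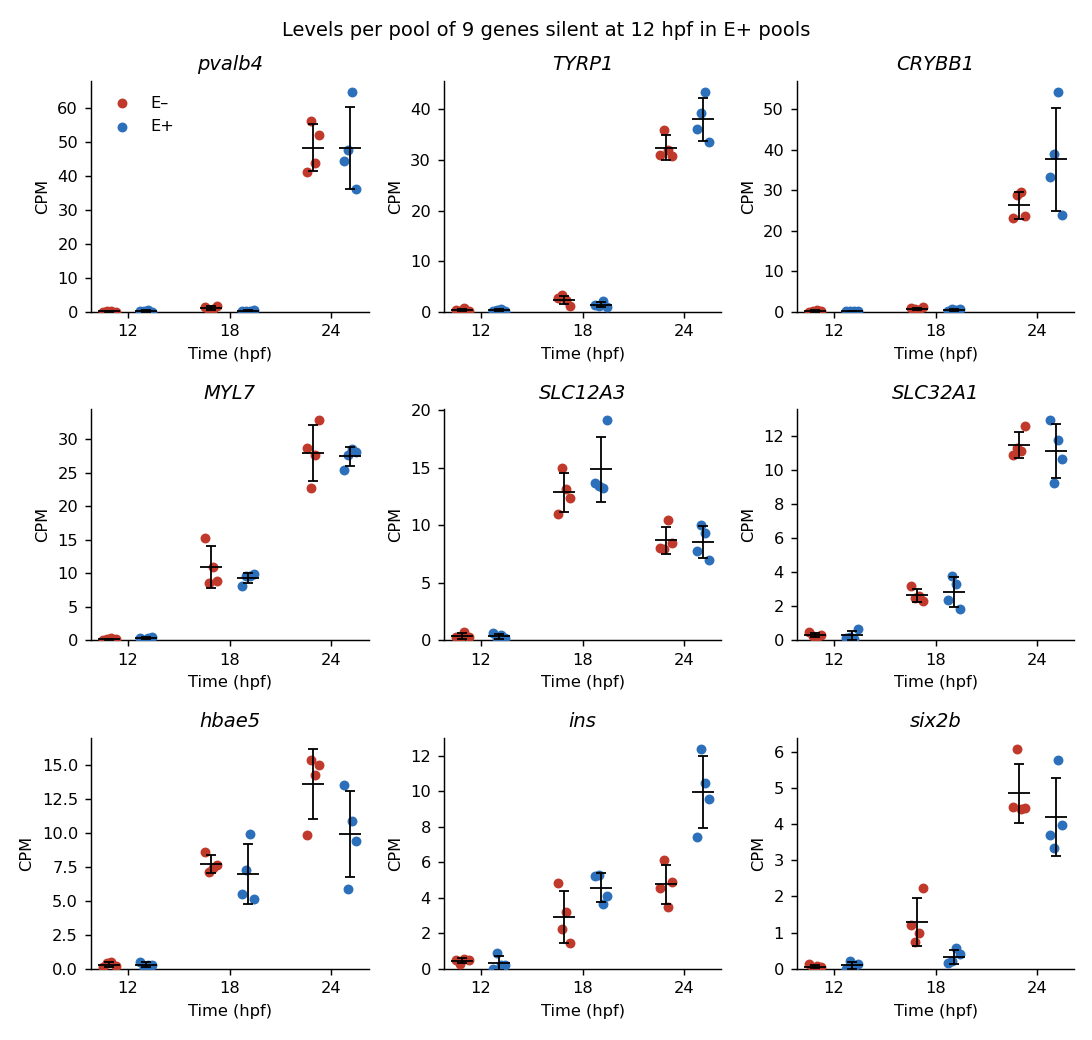
CPM in each pool for 9 genes of the module at 12, 18 and 24 hpf; red points on the left are E– pools, blue points on the right E+ pools, and black marks the mean and SD of 4 pools. pvalb4, TYRP1 and CRYBB1 appear almost wholly after 18 hpf, MYL7, SLC32A1 and hbae5 are partly on at 18 hpf, and SLC12A3 is highest at 18 hpf.

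Muscle genes made up the largest named role, and their summed level at 24 hpf was 452 ± 23.5 CPM in E– pools and 466 ± 60.1 CPM in E+ pools (SD, n = 4 each). In E– pools 30 of the 34 were called higher at 18 against 12 hpf and 32 at 24 against 18 hpf. The backgrounds over all genes tested, 21.7% and 11.2%, hold for the counts of each role named below. Those counts likewise describe genes chosen for their rise in E+ pools. MYL7 had 15.3, 8.50, 10.9 and 8.91 CPM in E– pools at 18 hpf, against 0.0625, 0.127, 0.274 and 0.230 CPM in E– pools at 12 hpf. These sets of pools lay far apart, with a log2 fold change of 5.88 ± 0.30 (SE; adjusted p = 5.16e-18, edgeR's quasi-likelihood test). At 24 hpf MYL7 had 28.6, 22.7, 27.7 and 32.8 CPM in E– pools and 25.4, 27.7, 28.5 and 28.1 CPM in E+ pools, and the 2 diets overlapped.

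Cardiac genes differed in how much of their 24 hpf level they had at 18 hpf. cmlc1, a cardiac myosin light chain, averaged 12.1 CPM in E– pools and 10.1 CPM in E+ pools at 18 hpf, and 21.7 CPM in E– pools and 22.3 CPM in E+ pools at 24 hpf. myh6, the atrial myosin heavy chain, averaged 6.22 CPM in E– pools and 4.13 CPM in E+ pools at 18 hpf, and 13.8 CPM in E– pools and 16.5 CPM in E+ pools at 24 hpf. tnnc1a, a troponin C that senses calcium in the heart, had 0.857 of its 24 hpf level at 18 hpf in E– pools and 0.508 of it in E+ pools, while MYBPC3, which binds myosin in the heart's sarcomere, had 0.193 and BVES, a membrane protein of heart and muscle, 0.206 of theirs in E– pools, against 0.185 and 0.239 in E+ pools. At 18 hpf tnnc1a had 4.35, 7.42, 3.79 and 3.24 CPM in E– pools. Its E– pools at 24 hpf had 5.01, 5.51, 5.68 and 5.74 CPM. The second step of tnnc1a was not called (log2 fold change 0.24 ± 0.27, SE; adjusted p = 0.620, edgeR's quasi-likelihood test).

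pvalb4 came on almost wholly after 18 hpf. It had 41.4, 56.4, 44.0 and 52.2 CPM in E– pools at 24 hpf, against 1.45, 0.405, 0.931 and 1.81 CPM in E– pools at 18 hpf. Every E– pool at 24 hpf was far above every one at 18 hpf, with a log2 fold change of 5.39 ± 0.27 (SE; adjusted p = 1.56e-17, edgeR's quasi-likelihood test). In E+ pools pvalb4 had 44.5, 47.6, 64.8 and 36.1 CPM at 24 hpf, against 0.158, 0.374, 0.366 and 0.461 CPM at 18 hpf. SLC25A4, the ADP/ATP carrier of mitochondria, also came on after 18 hpf in E– pools, with 20.03 ± 3.39 CPM at 24 hpf (SD, n = 4) and means of 0.425 CPM at 18 hpf and 0.367 CPM at 12 hpf. pvalb3 and atp2a1l, a calcium pump, were also without a called first step in E– pools, and both were called at the second step, as was SLC25A4.

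Other sarcomere, calcium and energy genes were at like levels in the 2 diets. The muscle myosin heavy chains myhc4 and myha averaged 8.09 and 3.43 CPM in E– pools at 24 hpf, and 8.84 and 4.23 CPM in E+ pools. PYGM, which breaks down muscle glycogen, averaged 21.3 CPM in E– pools and 25.2 CPM in E+ pools at 24 hpf. PGAM2, a muscle enzyme of glycolysis, averaged 19.5 CPM in E– pools and 22.4 CPM in E+ pools. The pools of the 2 diets overlapped in each of these genes. MYBPC3 averaged 19.96 CPM in E– pools and 17.3 CPM in E+ pools. ACTA1, a skeletal actin, CASQ1, which stores calcium, and JPH2, which joins the membranes of the calcium release site, averaged 9.45, 7.08 and 12.5 CPM in E– pools and 9.42, 7.96 and 11.8 CPM in E+ pools.

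A list of 58 skeletal muscle symbols matched 54 genes of the count table, and 9 of these were in the module. Of the 53 tested genes of the list, those 9 were also the only ones with an E+ mean under 0.5 CPM at 12 hpf. The other tested genes were at or above that level in E+ pools by then. At 24 against 12 hpf in E– pools 51 of the 53 tested were called higher and 0 lower, with a median log2 fold change of 5.36, beside backgrounds of 28.9% higher and 26.6% lower that hold for each list named here. Of a heart list 11 of 13 tested genes were called higher and 0 lower, with a median of 3.88, and MYL7, myh6 and tnnc1a were its members of the module.

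DHRS7C, a dehydrogenase of the muscle calcium store, was 1 of the 2 muscle genes, with tnnc1a, whose E– and E+ pools lay apart at 24 hpf. Over all genes tested, E– pools were all below E+ pools in 2.23% and all above in 2.11%. DHRS7C had 12.8, 17.5, 14.1 and 16.6 CPM in E– pools, against 25.5, 20.5, 24.6 and 21.2 CPM in E+ pools. No E– pool reached the lowest E+ pool. At 18 hpf it had 9.05, 6.81, 12.7 and 4.43 CPM in E– pools and 8.36, 3.26, 9.58 and 6.98 CPM in E+ pools, which did overlap. DHRS7C is named after its values were seen, and as the E+ level at 24 hpf helped choose it, the gap is given as a description, and DHRS7C was not among the genes called at 24 hpf.

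Lens genes were the latest of the module. Their summed level was 5.83 ± 1.16 CPM in E– pools and 5.05 ± 0.948 CPM in E+ pools at 18 hpf (SD, n = 4 each). At 24 hpf it was 93.0 ± 18.0 CPM in E– pools and 130 ± 46.4 CPM in E+ pools (SD, n = 4 each). In E– pools all 10 were called higher at 24 against 18 hpf, with log2 fold changes of 1.43 to 6.22. Only 4 of the 10 were called higher at 18 against 12 hpf, and 8 of the 27 genes that came on after 18 hpf in both diets were lens genes. The 3 γ-crystallins of the crygm2d family had 0 reads or nearly so at 18 hpf, with means of 0.0312 to 0.0675 CPM in E– pools and 0 to 0.0329 CPM in E+ pools. Their means at 24 hpf were 2.96 to 3.61 CPM in E– pools and 4.55 to 6.08 CPM in E+ pools.

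lim2.1, a membrane protein of lens fibers, was the exception, since it was partly on by 18 hpf. It had 2.23, 2.16, 1.40 and 1.06 CPM in E– pools at 18 hpf and not 1 read in any of the E– pools at 12 hpf. Its mean at 24 hpf, 4.56 CPM in E– pools, was at least 96.7-fold higher than the level of 3 reads over the 4 E– pools at 12 hpf. CRYBA4, another β-crystallin, averaged 1.26 CPM in E– pools and 1.88 CPM in E+ pools at 18 hpf, and these were the only lens genes at 1 CPM or more by then.

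crygmx, a γ-crystallin, fell before it rose in E– pools. It had 0.362, 0.607, 0.399 and 0.187 CPM in E– pools at 18 hpf, against 1.06, 1.59, 0.548 and 2.01 CPM in E– pools at 12 hpf. Only 1 pool at 18 hpf reached the lowest pool at 12 hpf, and the log2 fold change was -1.79 ± 0.58 (SE; adjusted p = 0.0145, edgeR's quasi-likelihood test). At 24 hpf it had 3.16, 9.39, 3.64 and 2.59 CPM in E– pools, all above those at 18 hpf. In E+ pools crygmx averaged 0.458 CPM at 12 hpf, 0.197 CPM at 18 hpf and 5.27 CPM at 24 hpf.

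At 24 hpf the mean of each of the 10 lens genes was lower in E– than in E+ pools, with a median ratio of 0.702, against a median ratio of 0.975 for the 140 other genes. CRYBB1 had 23.0, 28.9, 29.5 and 23.6 CPM in E– pools, against 33.2, 39.0, 54.2 and 23.9 CPM in E+ pools. CRYBA4 had 8.35, 13.6, 11.3 and 10.9 CPM in E– pools, against 16.1, 15.5, 23.8 and 11.7 CPM in E+ pools. In both genes the pools of the 2 diets overlapped, and E+ replicate 3 stood highest. That pool also had the largest summed level of the whole module, 1743 CPM. Without it 7 of the 10 lens genes were lower in E– pools, the median ratio was 0.886, and that of the 140 other genes was 1.02. CRYBA2, crygmx and crygm2d19 then had ratios above 1, of 1.16, 1.13 and 1.003. At 18 hpf, when the pools did not choose the genes, the means of 9 of the 10 lens genes were higher in E– pools, with a median ratio of 1.74 at these low levels, and 0 were called. At 12 hpf the summed lens genes had 2.74 to 2.93 CPM in E– pools and 1.196 to 1.98 CPM in E+ pools. The widest gaps were in crygmx (means of 1.304 CPM in E– pools and 0.458 CPM in E+ pools) and CRYBA4 (0.725 and 0.2298 CPM). Means of crybb1l1 and crygm2d8 were also higher in E– pools. Those of CRYBB1, cryba1b, CRYBA2, lim2.1, crygm2d13 and crygm2d19 were lower. As the rule held each E+ mean under 0.5 CPM at 12 hpf, these sums are given as a description.

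Lens genes outside the module mostly had the lower mean in E– pools as well. A list of 31 lens symbols matched 30 genes, of which 17 were tested and 11 of those were not in the module. At 24 hpf 10 of these 11 were lower in E– pools, with a median ratio of 0.817, and 7 were lower without E+ replicate 3, with a median of 0.895. The exception was foxe3, a transcription factor of the lens epithelium, with means of 4.69 CPM in E– pools and 2.67 CPM in E+ pools. It had 4.75, 4.52, 5.59 and 3.89 CPM in E– pools, against 1.57, 1.94, 3.34 and 3.83 CPM in E+ pools. Every E– pool lay above every E+ pool, as in 2.11% of all genes tested. None of the 17 was a DE gene at 24 hpf, when 0 of the 19597 genes tested were called in either direction by edgeR's quasi-likelihood test (676 were higher and 632 lower at an unadjusted p under 0.05).

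**Figure D4:**
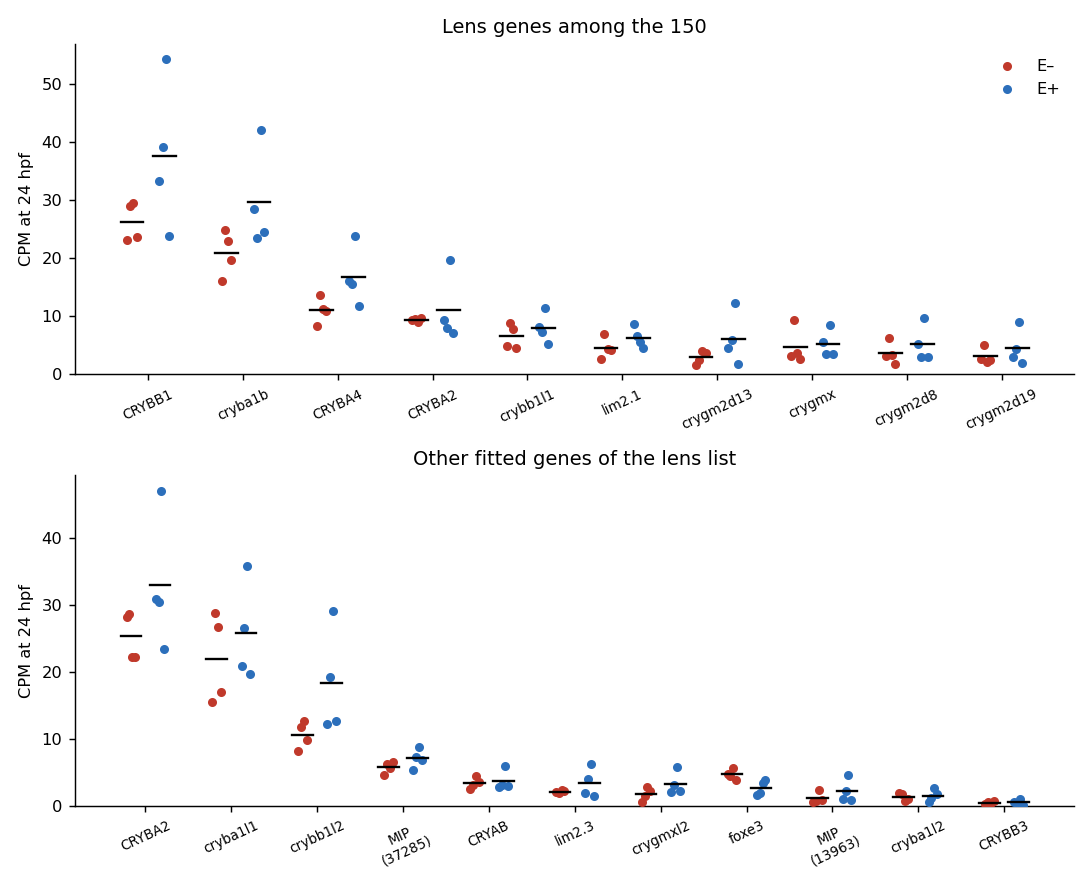
CPM at 24 hpf in each pool for the 10 lens genes of the module (top) and the 11 other tested genes of the lens list (bottom); red points on the left are E– pools, blue points on the right E+ pools and black bars are means of 4 pools. Digits under MIP are the last of its 2 gene identifiers. E+ means were above E– means for all but foxe3, and 1 E+ pool stood highest for many of the crystallins.

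Neural genes were early and even. By 18 hpf all 28 had a mean of 1 CPM or more in E– pools, and 27 had in E+ pools, ACHE being the one left out. In E– pools 27 of the 28 were called higher at 18 against 12 hpf and 25 at 24 against 18 hpf, with median log2 fold changes of 2.99 and 1.19. CLSTN3, a calsyntenin of the synapse, was the one without a called first step. SLC32A1, which loads GABA and glycine into vesicles, had 10.9, 11.3, 11.1 and 12.6 CPM in E– pools at 24 hpf, against 3.199, 2.496, 2.59 and 2.31 CPM in E– pools at 18 hpf. These pools did not overlap (log2 fold change 2.13 ± 0.26, SE; adjusted p = 7.27e-08, edgeR's quasi-likelihood test), and in E+ pools at 24 hpf it had 12.9, 9.23, 11.7 and 10.6 CPM.

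The module held both enzymes that make GABA and, of the genes of acetylcholine signaling, SLC18A3 and ACHE. GAD2 averaged 5.50 CPM in E– pools and 6.43 CPM in E+ pools at 24 hpf, and GAD1 5.84 CPM in E– pools and 4.81 CPM in E+ pools. SLC18A3, the vesicular acetylcholine transporter, averaged 6.67 CPM in E– pools and 7.38 CPM in E+ pools, and ACHE, which breaks acetylcholine down, 5.04 CPM in E– pools and 4.60 CPM in E+ pools. For each of these the pools of the 2 diets overlapped. The highest neural genes at 24 hpf were OTP, a homeodomain factor of the hypothalamus, with 13.0 CPM in E– pools and 14.2 CPM in E+ pools, and SCRT1, a zinc finger factor of new neurons, with 11.9 CPM in E– pools and 12.7 CPM in E+ pools. SCN8A, a neuronal sodium channel, averaged 5.03 CPM in E– pools and 6.30 CPM in E+ pools. Of a list of 52 neuronal symbols, 53 genes were tested, 44 were called higher and 4 lower at 24 against 12 hpf in E– pools, and 6 were in the module.

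Pigment cell genes came up mostly after 18 hpf, and the 4 of them were called higher at both steps in E– pools. TYRP1 had 30.9, 35.95, 32.0 and 30.8 CPM in E– pools at 24 hpf, against 2.72, 3.24, 2.26 and 1.18 CPM in E– pools at 18 hpf. The pools at 24 hpf were all far above (log2 fold change 3.80 ± 0.23, SE; adjusted p = 1.68e-15, edgeR's quasi-likelihood test). SLC45A2, a transporter of the melanosome, and pmelb, which forms its fibrils, averaged 13.1 and 5.13 CPM in E– pools at 24 hpf and 13.9 and 4.76 CPM in E+ pools. TFAP2E, a transcription factor of the pigment lineage in zebrafish, averaged 7.37 CPM in E– pools and 6.59 CPM in E+ pools. Of 18 tested genes of a pigment list 16 were called higher and 0 lower at 24 against 12 hpf.

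Skin, fin fold and matrix genes summed to 108 ± 3.59 CPM in E– pools and 107 ± 14.3 CPM in E+ pools at 24 hpf (SD, n = 4 each). krt1-19e and snorc were the most abundant and were named above. FMOD, a small proteoglycan that binds collagen, averaged 25.6 CPM in E– pools and 24.7 CPM in E+ pools. and2, an actinodin of the fin fold fibers, was among the latest genes, with 7.34 ± 1.34 CPM in E– pools at 24 hpf (SD, n = 4) and means of 0.144 CPM at 18 hpf and 0.0331 CPM at 12 hpf. HOXB13, of the posterior body axis, was late as well, with means of 4.78 CPM in E– pools and 4.79 CPM in E+ pools at 24 hpf, and 0.457 CPM in E– pools and 0.363 CPM in E+ pools at 18 hpf.

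The globin genes hbae5 and hbae4, embryonic α-globins of primitive red blood cells, were the role with the most of its level in place at 18 hpf. hbae5 had 8.63, 7.15, 7.45 and 7.67 CPM in E– pools and 5.52, 7.31, 9.94 and 5.14 CPM in E+ pools at 18 hpf. At 24 hpf it had 9.84, 15.4, 14.3 and 15.0 CPM in E– pools and 13.5, 5.89, 10.9 and 9.42 CPM in E+ pools. The diets overlapped at both times, although at 24 hpf the ratios of E– to E+ means, 1.37 for hbae5 and 1.45 for hbae4, were among the 3 highest of the module. The third was that of the MYOZ2 copy ENSDARG00000037266, a protein of the sarcomere's Z-disc, at 1.35. In E– pools both globins were called higher at each step. The red blood cell list had 18 of 21 tested genes higher and 2 lower at 24 against 12 hpf.

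Hormone and transport genes showed the least common course. SLC12A3 had 11.0, 15.0, 13.1 and 12.3 CPM in E– pools at 18 hpf, the highest mean of the module at that time. Its E– pools at 24 hpf had 7.997, 7.91, 10.4 and 8.43 CPM, all below those at 18 hpf. The log2 fold change at 24 against 18 hpf was -0.55 ± 0.20 (SE; adjusted p = 0.0560, edgeR's quasi-likelihood test), the only called fall at this step, and the call was lost without E– replicate 2 or 3 at 18 hpf or E– replicate 1, 2 or 4 at 24 hpf, with adjusted p up to 0.158. In E+ pools SLC12A3 averaged 14.9 ± 2.83 CPM at 18 hpf and 8.52 ± 1.40 CPM at 24 hpf (SD, n = 4 each). slc22a7a, an organic anion transporter, took the opposite course, with means in E– pools of 0.298 CPM at 18 hpf and 6.15 CPM at 24 hpf. The sodium pump regulators fxyd2 and fxyd12 averaged 11.1 and 7.62 CPM in E– pools at 24 hpf, and 10.7 and 6.09 CPM in E+ pools. ca15a, a carbonic anhydrase of ionocytes in zebrafish, averaged 5.99 CPM in E– pools and 5.13 CPM in E+ pools, and CP, the copper carrier ceruloplasmin, 7.35 CPM in E– pools and 10.8 CPM in E+ pools.

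ins, the insulin gene of the pancreatic β-cell, had the lowest ratio of E– to E+ means of the module at 24 hpf, 0.479. It had 4.57, 6.14, 3.47 and 4.91 CPM in E– pools, against 7.45, 12.4, 10.5 and 9.56 CPM in E+ pools, so that every E– pool lay below every E+ pool. Over all genes tested, 2.23% had pools that lay this way. The E+ level at 24 hpf helped choose ins, so this gap is given as a description, and ins was not called at 24 hpf. At 18 hpf ins had 4.83, 2.23, 3.19 and 1.43 CPM in E– pools and 5.21, 5.28, 3.66 and 4.09 CPM in E+ pools, with 1 E– pool inside the E+ range. The difference at 18 hpf was a log2 fold change of -0.64 ± 0.35 (SE; unadjusted p = 0.0735, not called by edgeR's quasi-likelihood test). In E– pools ins was called higher at 18 against 12 hpf and not at 24 against 18 hpf (log2 fold change 0.72 ± 0.35, SE; adjusted p = 0.166, edgeR's quasi-likelihood test). After ins the lowest ratios at 24 hpf were 0.487 for crygm2d13 and 0.598 for ENSDARG00000108535.

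Of the genes of another role, klhl43 averaged 9.95 CPM in E– pools and 8.52 CPM in E+ pools at 18 hpf, and ngs, nearly as abundant at 24 hpf, only 1.37 CPM in E– pools and 1.03 CPM in E+ pools. CAVIN1, a coat protein of caveolae, averaged 20.7 CPM in E– pools and 20.3 CPM in E+ pools at 24 hpf. pvalb8, a parvalbumin of sensory hair cells in zebrafish, averaged 9.79 CPM in E– pools and 10.8 CPM in E+ pools, and ESAM, an adhesion protein of endothelium, 4.12 CPM in E– pools and 4.27 CPM in E+ pools. None of the genes on the lists of macrophages and neutrophils, of retina and pineal, of glia and neural progenitors or of the circadian clock was in the module. 70 of the 150 genes were matched by symbol to the RefSeq annotation of the GRCz12tu assembly. pvalb4 and pvalb8 were 1 gene apart there, as were myhc4 and myha, and the pairs fxyd2 and ins, hbae5 and hbae4, crygm2d13 and crygm2d8, and crygm2d8 and crygm2d19 were each within 5 genes.

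E– pools at 12 hpf mostly shared the near silence that the rule set for E+ pools, with a median of 0.294 CPM over the 150 genes in E– pools and 0.295 CPM in E+ pools. In 30 genes the E– mean was 0.5 CPM or more, and in 3 it was 1 CPM or more. Those 3 were scdb (2.16 CPM), crygmx (1.304 CPM) and RALY, an RNA-binding protein (1.21 CPM), followed by CLSTN3 (0.988 CPM) and ELMO2, an engulfment and migration factor (0.827 CPM). scdb had 3.13, 2.93, 1.78 and 0.805 CPM in E– pools, against 0.636, 0.163, 0.614 and 0.496 CPM in E+ pools, and the 2 sets did not overlap. E– pools were all above E+ pools in 3 genes, scdb, CLSTN3 and tnnc1a, and all below in 1, atp2a1l. The backgrounds over all genes tested were 2.11% and 2.03%. tnnc1a averaged 0.501 CPM in E– pools and 0.0516 CPM in E+ pools at 12 hpf. As the E+ level was held under 0.5 CPM by the rule, an excess in E– pools is given with no test. At 12 hpf 3 genes were called higher and 2 lower in E– pools, beside backgrounds of 0.362% and 0.444%, and nothing is read from these counts.

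The diet comparison at 18 hpf compared only pools that took no part in the choice. The spread behind its test was estimated over all 24 pools, among them the E+ pools that chose the genes. Of the 150 genes 1 was called, six2b, a homeobox factor, which was higher in E– pools, against a background of 0.276% of all genes tested called higher and 0.122% called lower. six2b had 1.21, 0.742, 0.998 and 2.24 CPM in E– pools, against 0.158, 0.214, 0.585 and 0.395 CPM in E+ pools. Every E– pool was above every E+ pool (log2 fold change 1.93 ± 0.47, SE; adjusted p = 0.0796, edgeR's quasi-likelihood test). The call was lost without E– replicate 1, 3 or 4 or E+ replicate 1, 2 or 4 at 18 hpf, and without E– replicate 3 or E+ replicate 4 at 24 hpf, with adjusted p up to 0.354. Other settings called between 0 and 6 genes of the module. At 24 hpf six2b had 4.48, 6.07, 4.40 and 4.45 CPM in E– pools and 3.69, 3.34, 5.77 and 3.97 CPM in E+ pools, which overlapped.

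Across the module the E– means at 18 hpf were higher than the E+ means in 102 genes and lower in 48, and 50.1% of all genes tested were higher. The median log2 fold change of E– over E+ pools was 0.20 for the module, with quartiles of -0.12 and 0.50, and 0.00 for all genes tested, with quartiles of -0.17 and 0.20. At an unadjusted p under 0.05, 16 of the 150 genes were higher and 3 lower in E– pools, where 1003 and 789 of the 19597 genes tested were. E– pools were all above E+ pools in 4 genes and all below in 2, against backgrounds of 3.25% and 3.14%, so the module had no larger share of such genes than its background. The genes next to six2b in p were pvalb4, with a log2 fold change of 1.72 ± 0.46 (SE; adjusted p = 0.125, edgeR's quasi-likelihood test), and the MYOZ2 copy ENSDARG00000012311, with 2.15 (adjusted p = 0.154, same test). Both genes were named after their values were seen, and neither was called.

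At 24 hpf E– and E+ pools held the module at close levels. The ratio of E– to E+ means had a median of 0.966, and it was within 1.5-fold for 144 genes and within 2-fold for 148. E– means were higher in 58 genes and lower in 92, and 48.4% of all genes tested were higher. E– pools were all below E+ pools in 3 genes, DHRS7C, ins and tnnc1a, and all above in 0, beside backgrounds of 2.23% and 2.11%. With 0 of 150 genes called in either direction, beside a background of 0%, the 24 hpf levels are given as a description, since the E+ levels chose the genes and genes picked for a high E+ mean can lie lower in any other set of pools. The same rule applied to E– pools shared 100 of its 150 genes with this module. Of the other 50 genes of the module, 30 had an E– mean of 0.5 CPM or more at 12 hpf and 20 ranked too low at 24 hpf in E– pools.

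**Figure D5:**
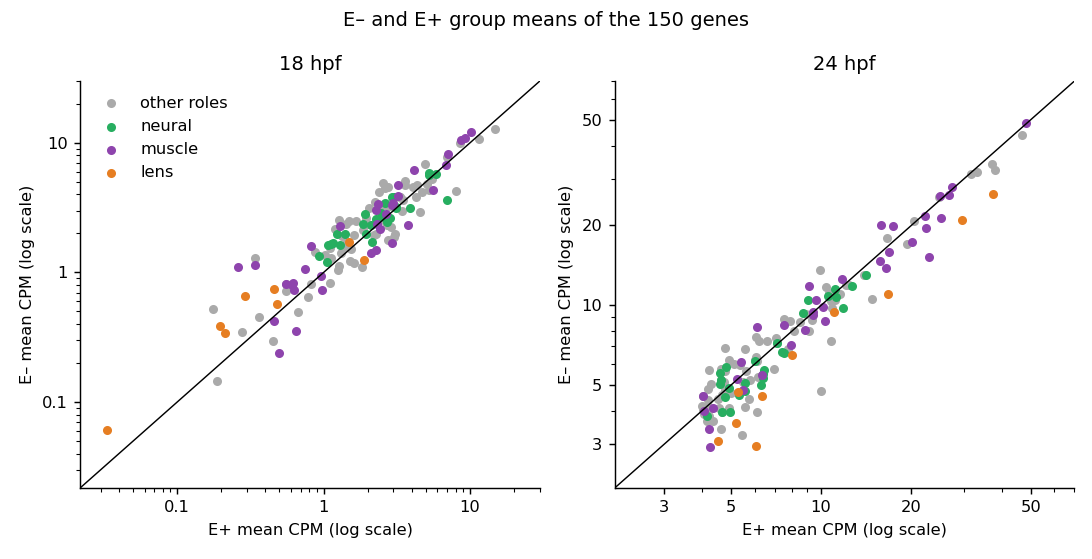
E– against E+ group mean CPM (n = 4 pools each, log scales) of the genes at 18 hpf (left) and 24 hpf (right), colored by role; the line marks equal levels, and crygm2d13 and crygm2d8, with 0 reads in E+ pools at 18 hpf, are left out of the left plot. At 18 hpf 102 genes had the higher mean in E– pools, and at 24 hpf the 10 lens genes lay below the line.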

How the data were processed

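RNA was measured by 3′ mRNA sequencing (QuantSeq FWD, single-end) in 24 pools of 10 whole embryos. Per the labels and the study's methods, the authors checked reads with FastQC 0.11.5, trimmed them and aligned them to GRCz11 with STAR 2.7.3a, and deposited raw gene counts, with 4 rows that tally unassigned reads (left out here). Which strand column was counted is not given in the sources used here. Of 32520 identifiers 29201 matched the gene name table, and 147 of the 150 genes had a symbol.

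CPM were computed from the counts with TMM-scaled library sizes over the 29109 genes with at least 1 read. Tests were made in R 4.3.3 with edgeR 4.0.16: TMMwsp normalization as in the study's methods, filterByExpr over the 6 groups (19597 genes kept), the quasi-likelihood F-test on 1 model of 6 groups with no covariate, and Benjamini-Hochberg adjustment over all genes kept (FDR under 0.1). The SE given with a log2 fold change is its absolute value divided by the square root of the F statistic of that test. It is not an error that edgeR reports. DESeq2 1.42.0 served as an alternative. Figures were drawn with matplotlib in Python.

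The depth of 10537272 to 20973407 gene counts per pool leaves a level of 0.5 CPM at 5.40 to 10.6 reads, so levels at 12 hpf rest on few reads; counting limits cover counting error only. Replicate numbers come from the sample titles. All 36 pairs of replicates differed by more than sampling noise.

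The genes, the role groups and the marker lists were chosen with earlier results of these data known. Named genes were the 10 highest at 24 hpf in E+ pools, the 3 on each side of the limits, up to 4 per marker list, the 5 highest and 5 lowest shares at 18 hpf, those called between diets at 18 hpf, the 3 highest and 3 lowest diet ratios at 24 hpf, and the 5 highest in E– pools at 12 hpf, with other genes of each role added after their values were seen. Some genes that fall under this rule are not reported here. Alternatives were all genes with reads, TMM, DESeq2, edgeR's newer quasi-likelihood method, the replicate number as a block, the lane as a term, FDR under 0.05, each pool left out, other limits of the rule and other levels for onset.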

Additional observations from a re-analysis of the deposited data

Results flagged for a closer look

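In 4 of 136 groups of 4 pools examined (the levels of the named genes and the summed level of each role, per diet and time point), 1 pool lay far from the others by Dixon's ratio of its gap to the group's range. Chance alone gives about 1 in 20 such groups, or 6.8 here. The ratio was 0.954 for six2b in E– pools at 24 hpf, where replicate 2 had 6.07 CPM and the others 4.40 to 4.48 CPM. It was 0.929 for SLC12A3 in E+ pools at 18 hpf, where replicate 4 had 19.1 CPM and the others 13.2 to 13.6 CPM. It was 0.877 for the summed pigment cell genes in E+ pools at 12 hpf, where replicate 3 had 1.32 CPM and the others 0.434 to 0.544 CPM. It was 0.836 for ins in E– pools at 12 hpf, where replicate 2 had 0.255 CPM and the others 0.500 to 0.548 CPM.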

How the results depend on the processing

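The counts of genes called higher in E– pools were stable: 149 to 150 at 24 against 12 hpf, 127 to 133 at 18 against 12 hpf and 119 to 134 at 24 against 18 hpf over all settings. The diet count at 18 hpf was not: from 1 gene it became 3 with all genes with reads, 3 with edgeR's newer method, 0 at an FDR under 0.05, 6 with DESeq2, and 0 to 2 with single pools left out (0 without E+ replicate 1, 2 or 4 or E– replicate 1, 3 or 4 at 18 hpf, and without E+ replicate 4 or E– replicate 3 at 24 hpf). With the replicate number as a block the counts were 149, 132, 126 and 1. Deviations of same-numbered pools correlated by -0.0537 to 0.0362, so the values showed no pairing by number. Whether same-numbered pools shared a spawning or handling is not given in the sources used here. A limit of 0.25 CPM at 12 hpf kept 58 of the 150 genes and a limit of 1 CPM kept 65, and leaving out 1 E+ pool kept 126 to 145. Genes on by 18 hpf in E– and E+ pools numbered 137 and 132 at 0.5 CPM, 81 and 79 at 2 CPM, 16 and 18 at 5 CPM, 91 and 76 at 0.25 of the 24 hpf level and 41 and 32 at 0.5 of it, and 119 to 122 and 114 to 118 with single pools left out. The ratio of summed lens genes at 24 hpf, 0.713, ran between 0.642 without E+ replicate 4 and 0.857 without E+ replicate 3, an alternative chosen after seeing the data. At 5 CPM the order of the diets in genes on by 18 hpf turned. Without E+ replicate 3 at 24 hpf the median diet ratio of the 140 genes outside the lens turned to 1.02 from 0.975. The causes of these shifts were not tested. Signs of log2 fold changes were compared over the settings only for the genes named next, and no sign changed among them. They were those of pvalb4, ngs, TYRP1, CRYBB1, klhl43, krt1-19e, snorc, cryba1b, MYL7 and FITM1 at 24 against 12 hpf in E– pools. The others were those of crygmx at 18 against 12 hpf and SLC12A3 at 24 against 18 hpf in E– pools. The last was that of six2b between the diets at 18 hpf.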
